A study of Mus musculus with 12 samples.

Results

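The nuclear genes for subunits of the mitochondrial respiratory chain and ATP synthase were followed in the paraspinal tissue of mice after back surgery. Members were chosen by gene symbol alone, as the *Nduf* genes of the a, b, c, s and v series, the 4 *Sdh* subunit genes, the *Uqcr* genes, *Cox4* to *Cox8* and the *Atp5* genes, which gave 84 of the 18996 genes in the count table. No measured value entered the choice, but the family was proposed after the comparison of its read counts scaled for library size (CPM) across the 3 groups was known, so its levels and counts of calls below are descriptions and do not serve as independent evidence of its direction. By complex, 37 members belong to complex I, 4 to complex II, 8 to complex III, 18 to complex IV and 17 to complex V. *Ndufa4* and *Ndufa4l2* were placed with complex IV. The 13 subunits encoded by mitochondrial DNA were not analysed here, and *Cyc1* and *Ndufab1*, whose symbols lie outside the name pattern, are given with the related gene lists further on.

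Bulk RNA sequencing covered 12 BALB/c mice aged 5 to 7 weeks, 4 in each of 3 groups, with tissue taken on day 7 after surgery. No operation mice gave paraspinal soft tissue from unoperated backs. SHAM and Laminectomy mice gave soft and scar tissue from the operated site. In SHAM, paraspinal soft tissue was taken away and the laminae were left in place, and in Laminectomy the T12-L2 laminae were taken out after the muscles had been separated from the spine. Both operations thus cut into or removed the tissue that was later sampled. The control and surgical samples differ in the tissue collected as well as in the surgery, and surgery and the tissue dissected cannot be told apart. Library totals were 16802989 to 18077868 counts, so a gene at 10 CPM rested on over 100 counts per mouse. Members took 1.39% to 1.70% of all counts in No operation mice, 0.494% to 0.773% in SHAM mice and 0.701% to 0.846% in Laminectomy mice.

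The respiratory chain passes electrons from NADH through complex I, or from succinate through complex II, to ubiquinone, then through complex III and cytochrome c to complex IV, which reduces oxygen. Complexes I, III and IV pump protons across the inner membrane, and complex V, the ATP synthase, uses the gradient to make ATP. Skeletal muscle is rich in mitochondria and replaces several subunits of complex IV by muscle isoforms, among them the products of *Cox6a2*, *Cox7a1* and *Cox8b*, while most other cells use *Cox6a1*, *Cox7a2* and *Cox8a*.

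2 surgical mice stood apart in muscle markers before any comparison of the members. In SHAM mouse 1 the summed CPM of 10 regenerating myofibre markers (embryonic and neonatal myosins, myogenic factors and fusion proteins) was 9.33, against 1872 to 3045 in the other SHAM mice. Its 26 mature myofibre markers summed to 2.08% of the No operation mean, against 6.50% to 9.47% in the others of its group. In Laminectomy mouse 1 the mature myofibre markers were at 3.40%, against 10.7% to 13.2%. SHAM mouse 1 was the lowest of its group in 72 of the 83 members tested, and Laminectomy mouse 1 in 58. The members' counts and some of the results named below are therefore also given without both of these surgical mice, an alternative added after seeing the data. No operation mouse 1 stayed in that alternative, although it differed from its group as well. Its regenerating myofibre markers summed to 143 CPM, against 272 to 616 CPM in the others, and 12 macrophage markers to 2384 CPM, against 932 to 1598 CPM. In all 3 groups mouse 1 was lowest in the former sum and highest in the latter.

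Most members were lower in both surgical groups than in No operation mice. In the edgeR quasi-likelihood fit over 14765 genes, where a gene was called if its Benjamini-Hochberg adjusted p was under 0.05 and its log2 fold change beyond 0.5 in either direction, 76 of the 83 members tested fell in SHAM, where 25.1% of all genes tested were called lower. The other calls were 3 members that rose, *Cox6a1*, *Cox8a* and *Ndufa4l2*, where 25.7% of all genes were called higher. In Laminectomy against No operation 77 members fell (24.4% of all genes) and 2 rose, *Cox6a1* and *Cox8a* (24.2% of all genes). Both comparisons share the No operation mice. The median log2 fold change of the members was -1.36 in SHAM and -1.19 in Laminectomy, against -0.00 and 0.01 over all genes tested. The middle range of the members, from the lower to the upper quartile, was -1.72 to -1.02 in SHAM and -1.44 to -0.93 in Laminectomy.

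The member values of single mice did not overlap for most genes. All 8 surgical mice lay below all 4 No operation mice in 77 of 83 members (23.6% of all genes tested) and above them in 2 members (21.1% of all genes). The other 4 members overlapped. Without SHAM mouse 1 and Laminectomy mouse 1, the numbers called were 78 in SHAM and 79 in Laminectomy. 1 member, *Ndufb4b*, did not pass the filter on low counts, with 0 to 0.189 CPM in every mouse.

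**Figure D1:**
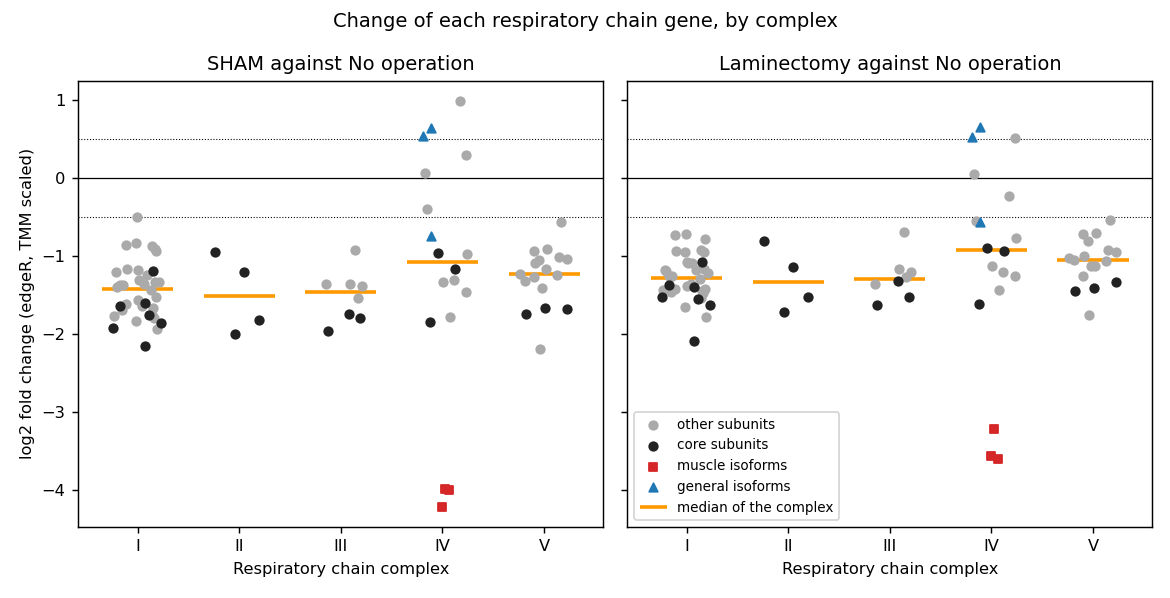
Each point is 1 of the 83 members tested, placed by its complex (x axis) and its log2 fold change against No operation (y axis), with SHAM on the left and Laminectomy on the right; orange bars are the medians of each complex and dotted lines mark the call threshold of 0.5. The 3 muscle isoforms of complex IV lie between -4.21 and -3.22, well below the remaining members, and *Cox6a1* and *Cox8a* lie above 0.5 in both panels.

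Complex I, the NADH dehydrogenase, had 36 members tested, of which 35 fell in SHAM and 36 in Laminectomy, with medians of -1.42 and -1.28. With library totals alone as the scaling, 33 fell in Laminectomy, and *Ndufv3*, *Ndufb7* and *Ndufc2* were not called. Their summed level was 4413, 3783, 4402 and 5136 CPM in the No operation group, 1248, 1583, 1595 and 1820 CPM in SHAM, and 1571, 1828, 1785 and 1874 CPM in Laminectomy, so every surgical mouse had at most 42.3% of the No operation mean. The lowest member by fold in both comparisons was *Ndufs7*, an iron-sulfur subunit near the quinone site. It was at 111, 97.7, 118 and 137 CPM in the No operation group, at 21.4, 30.7, 25.3 and 27.0 CPM in SHAM and at 26.8, 30.3, 22.5 and 29.5 CPM in Laminectomy. Its groups with and without surgery did not overlap, with a log2 fold change of -2.15 (SE 0.143) in SHAM and -2.09 (SE 0.143) in Laminectomy.

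All 7 core subunits of complex I tested were called lower, from *Ndufs7* to *Ndufs8*, an iron-sulfur subunit at -1.19 (SE 0.151) and -1.07 (SE 0.150). *Ndufs1*, the large iron-sulfur subunit, had a log2 fold change of -1.91 (SE 0.182) in SHAM and -1.52 (SE 0.179) in Laminectomy, and *Ndufv1*, the flavin subunit that takes electrons from NADH, had -1.85 (SE 0.160) and -1.63 (SE 0.159). *Ndufs1* was at 311 to 377 CPM without surgery, 68.2 to 121 CPM in SHAM and 102 to 133 CPM in Laminectomy. At the other end of the complex stood *Ndufv3*, a small accessory subunit of the NADH-binding module. It was at 44.0, 42.3, 48.0 and 55.7 CPM in the No operation group, at 37.8, 32.8, 29.9 and 34.5 CPM in SHAM and at 29.8, 27.5, 27.1 and 31.5 CPM in Laminectomy. Its SHAM change of -0.49 (SE 0.106) had an adjusted p of 0.00186 in edgeR but lay just inside the fold threshold and was not called (it was called when No operation mouse 1 or 2, SHAM mouse 1 or 4 or both mice 1 were left out), whereas the Laminectomy change of -0.71 (SE 0.107) was called. *Ndufb4* and *Ndufb4c* are near-identical copies whose counts can share reads. In all, 9 members held values that were not whole numbers, *Cox7a2* and *Uqcrc2* among them, so the single values of these members are less certain.

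Complex II, the succinate dehydrogenase that also belongs to the citric acid cycle, fell in all 4 of its members in both comparisons. The catalytic flavoprotein *Sdha* was at 775, 675, 801 and 883 CPM in the No operation group, at 184, 177, 268 and 257 CPM in SHAM and at 256, 293, 283 and 258 CPM in Laminectomy. Its log2 fold change was -1.82 (SE 0.159) in SHAM and -1.52 (SE 0.157) in Laminectomy. The iron-sulfur subunit *Sdhb* changed most within the complex, by -1.99 (SE 0.150) and -1.71 (SE 0.149), and the membrane anchor *Sdhd* least, by -0.95 (SE 0.101) and -0.80 (SE 0.101). For *Sdhd*, No operation mice had 145 to 181 CPM, SHAM mice 72.2 to 91.1 CPM and Laminectomy mice 84.5 to 98.9 CPM, which again left a gap between operated and unoperated backs. With library totals alone *Sdhd* was at -0.48 in Laminectomy and no longer called.

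Complex III, the cytochrome bc1 complex, fell in 8 of 8 members in both comparisons, with medians of -1.46 in SHAM and -1.29 in Laminectomy. *Uqcrfs1*, the Rieske iron-sulfur protein, was at 272, 231, 251 and 334 CPM in the No operation group, at 48.3, 68.8, 80.4 and 83.2 CPM in SHAM and at 78.7, 94.5, 86.3 and 92.8 CPM in Laminectomy. It had the lowest values of the complex, -1.96 (SE 0.175) and -1.63 (SE 0.173). The core protein *Uqcrc1* had -1.79 (SE 0.164) and -1.53 (SE 0.162). *Uqcrh*, the acidic hinge subunit that binds cytochrome c1, had the smallest change, -0.92 (SE 0.169) and -0.69 (SE 0.168), and its mice did not overlap either, with 116 to 161 CPM without surgery and 54.6 to 104 CPM after it. With library totals alone it was at -0.36 in Laminectomy (adjusted p 0.108 in edgeR) and no longer called, which left 7 of 8 members lower there.

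Complex V, the ATP synthase, fell in 17 of 17 members in both comparisons, with medians of -1.23 and -1.04. With library totals alone 16 fell in SHAM and 13 in Laminectomy, where *Atp5g2*, *Atp5g3*, *Atp5h* and *Atp5mpl* were not called. It held the most abundant messages of the family. Per kilobase of transcript, *Atp5b*, the catalytic beta subunit, led all members with 1142 ± 106 CPM per kb (SD, n = 4) in No operation mice, 357 ± 97.1 in SHAM and 456 ± 45.2 in Laminectomy. *Atp5a1*, the alpha subunit, had 696 ± 66.4 CPM per kb in No operation mice, 219 ± 52.3 in SHAM and 262 ± 26.0 in Laminectomy, ranking 2 without surgery and 3 in both surgical groups, behind *Cox4i1*. The log2 fold changes were -1.68 (SE 0.192) and -1.33 (SE 0.191) for *Atp5b* and -1.67 (SE 0.176) and -1.41 (SE 0.175) for *Atp5a1*.

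The 3 genes that encode the same mature subunit c of the ATP synthase ring differed among themselves. *Atp5g1* was at 305, 222, 260 and 346 CPM in the No operation group, at 41.4, 68.7, 64.9 and 72.6 CPM in SHAM and at 72.2, 86.2, 89.5 and 87.1 CPM in Laminectomy, a log2 fold change of -2.19 (SE 0.189) and -1.76 (SE 0.186). *Atp5g3* had -1.05 (SE 0.173) and -0.80 (SE 0.172), the latter -0.47 and not called with library totals alone. *Atp5g2* was at 130, 106, 114 and 134 CPM in the No operation group, at 71.1, 93.8, 72.2 and 91.2 CPM in SHAM and at 81.0, 84.0, 78.0 and 90.2 CPM in Laminectomy. Its change of -0.56 (SE 0.117) in SHAM and -0.54 (SE 0.117) in Laminectomy was the smallest of the complex, and the call was easily lost. It was lost in both comparisons with library totals alone (-0.30 and -0.21) and with upper-quartile scaling (-0.48 and -0.41), in SHAM without SHAM mouse 1 (-0.50) or without both mice 1 (-0.46), and in Laminectomy without No operation mouse 4 (-0.48). The difference between the 3 genes was not tested.

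Complex IV, cytochrome c oxidase, had the widest spread. Of its 18 members 12 fell in each comparison, 3 rose in SHAM and 2 in Laminectomy, and the medians were -1.07 and -0.92. *Cox4i1*, the largest nuclear subunit of the complex, was at 452, 403, 453 and 511 CPM in the No operation group, at 189, 259, 225 and 262 CPM in SHAM and at 238, 261, 228 and 254 CPM in Laminectomy, and changed by -0.96 (SE 0.124) and -0.89 (SE 0.124). *Cox5a* changed by -1.85 (SE 0.149) and -1.62 (SE 0.148). *Ndufa4*, first assigned to complex I and now known as a cytochrome c oxidase subunit, changed by -1.78 (SE 0.195) and -1.43 (SE 0.193). Among the remaining general subunits *Cox6b1* had -0.98 and -0.77, the latter -0.43 and not called with library totals alone, and *Cox7b* -1.46 and -1.25. By contrast 4 members of the complex were not called in at least 1 comparison and are described after the isoform pairs.

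The 3 muscle isoforms changed most of all members. *Cox6a2* (gene ID 12862, chr7:128205435-128206366 in GRCm38.p6) was at 471, 249, 323 and 424 CPM in the No operation group, at 6.74, 23.2, 20.5 and 28.8 CPM in SHAM and at 9.32, 36.1, 37.4 and 41.1 CPM in Laminectomy. The lowest No operation mouse stood far above the highest surgical mouse. This was an 18.5-fold lower level in SHAM (log2 -4.21, SE 0.527) and an 11.8-fold lower level in Laminectomy (log2 -3.56, SE 0.511). Per kilobase of transcript *Cox6a2* ranked 4 of the 82 members with a known transcript length in No operation mice, 67 in SHAM and 55 in Laminectomy. An exon of *Itgad* overlaps it on the opposite strand. In all, 30 of the 84 members overlap an exon of another gene, *Ndufs1*, *Atp5a1*, *Cox4i1*, *Cox5a* and *Uqcrc2* among them. The methods name default counting settings, which ignore strand but give whole numbers, whereas 10.22% of the deposited values are not whole. Whether strand was used is thus uncertain, and reads of such pairs may be mixed.

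*Cox7a1* was at 42.5, 32.2, 39.1 and 49.8 CPM in the No operation group, at 1.52, 3.42, 2.17 and 3.20 CPM in SHAM and at 1.59, 4.94, 5.49 and 5.53 CPM in Laminectomy, 15.8-fold and 9.30-fold lower (log2 -3.98, SE 0.379, and -3.22, SE 0.363). *Cox8b* was at 92.8, 59.6, 74.1 and 90.0 CPM in the No operation group, at 1.41, 6.42, 5.35 and 6.67 CPM in SHAM and at 1.64, 8.28, 6.79 and 9.44 CPM in Laminectomy, 15.9-fold and 12.1-fold lower (log2 -3.99, SE 0.527, and -3.60, SE 0.515). For each of the 3 genes mouse 1 was the lowest of both surgical groups. Without SHAM mouse 1 and Laminectomy mouse 1 the log2 fold changes were -3.89 and -3.24 for *Cox6a2*, -3.76 and -2.92 for *Cox7a1*, and -3.65 and -3.25 for *Cox8b*, all still called.

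Of the general isoforms 2 rose and 1 fell. *Cox6a1* was at 53.8, 56.1, 57.2 and 51.2 CPM in the No operation group, at 77.2, 93.9, 85.8 and 84.6 CPM in SHAM and at 99.8, 81.7, 74.7 and 86.6 CPM in Laminectomy. All 8 surgical mice lay above all No operation mice, and *Cox6a1* rose by 0.65 (SE 0.0982) in each comparison on the log2 scale. *Cox8a* was at 49.6, 54.0, 49.5 and 52.3 CPM in the No operation group, at 71.2, 80.8, 72.2 and 73.9 CPM in SHAM and at 78.0, 68.6, 68.6 and 80.7 CPM in Laminectomy, and rose by 0.54 (SE 0.0800) and 0.53 (SE 0.0800). This rise sits close to the threshold, since without SHAM mouse 2 the value was just under 0.50 and without Laminectomy mouse 4 it was 0.48, neither of them called. *Cox7a2* went the other way, from 74.5, 73.1, 81.1 and 100.2 CPM to 41.1, 50.8, 43.5 and 60.7 CPM in SHAM and 52.4, 51.9, 56.6 and 62.0 CPM in Laminectomy, a fall of 0.75 (SE 0.139) and 0.56 (SE 0.139) on the log2 scale. With library totals alone, *Cox7a2* was at -0.48 and -0.23 and no longer called, and the Laminectomy call was also lost with upper-quartile scaling (-0.43) and without No operation mouse 4 (-0.45).

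**Figure D2:**
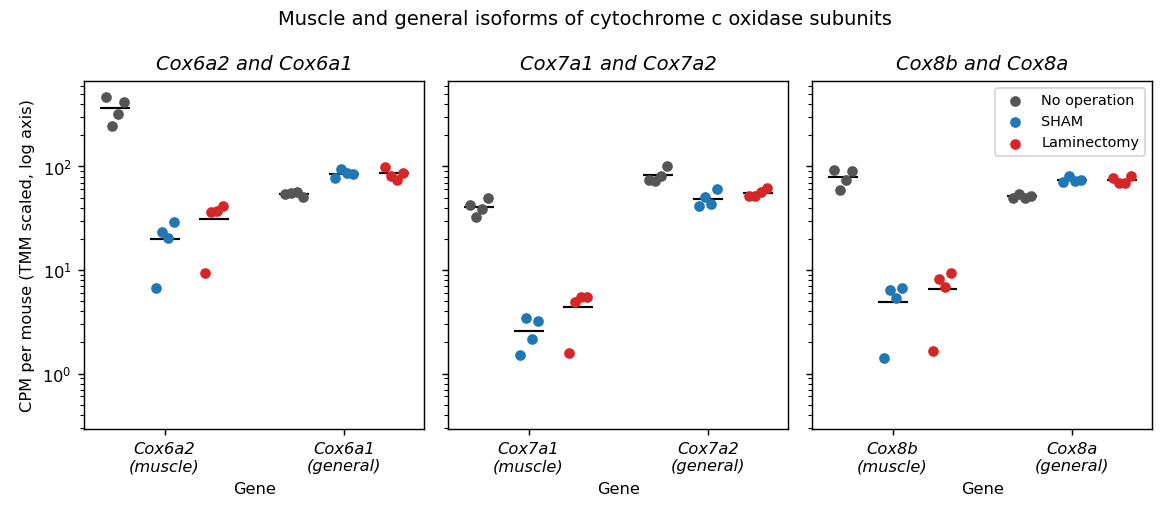
TMM-scaled CPM of each mouse on a log axis (y axis) for the muscle and general isoform of 3 complex IV subunits (x axis), with 4 points per group and a bar at the group mean. The muscle isoforms drop from between 32.2 and 471 CPM without surgery to between 1.41 and 41.1 CPM after it, whereas *Cox6a1* and *Cox8a* lie higher in all 8 surgical mice than in all No operation mice.

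Each pair was also set side by side as the share of the muscle isoform, on counts per kilobase of the principal transcript, a ratio that library scaling cannot change. *Cox6a2* made up 88.0%, 78.8%, 82.6% and 87.4% of the *Cox6a* pair in No operation mice, 6.84%, 17.2%, 16.7% and 22.2% in SHAM and 7.27%, 27.1%, 29.6% and 28.5% in Laminectomy. The pair was mostly muscle isoform in every No operation mouse and mostly general isoform in every surgical mouse. *Cox7a1* made up 42.5% to 48.9% of its pair in No operation mice, 5.83% to 10.2% in SHAM and 4.84% to 14.0% in Laminectomy. *Cox8b* made up 62.8% to 74.1% in No operation mice, 2.93% to 12.1% in SHAM and 3.12% to 15.6% in Laminectomy. As plain shares of counts, without the lengths, *Cox6a2* was 81.6% to 89.7%, 8.04% to 25.4% and 8.54% to 33.3% in the 3 groups. The level of each pair together also went down: *Cox6a* from 635 ± 144 CPM per kb to 179 ± 23.6 in SHAM and 196 ± 11.9 in Laminectomy (SD, n = 4), *Cox7a* from 229 ± 36.0 to 81.0 ± 15.3 and 95.7 ± 10.6, and *Cox8* from 313 ± 40.7 to 149 ± 13.1 and 153 ± 13.6.

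**Figure D3:**
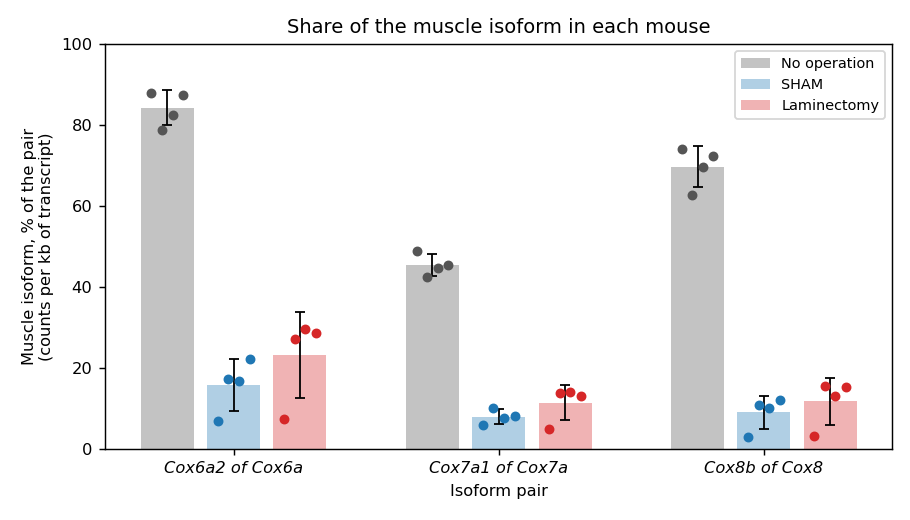
Share of the muscle isoform within each isoform pair (y axis, percent of counts per kb of transcript) by pair and group (x axis); points are the 4 mice, bars the mean and whiskers the SD. The share lies between 42.5% and 88.0% in No operation mice and at or below 29.6% in all surgical mice.

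To show what lies upstream of genes that moved in opposite directions, the RefSeq window from 250 bases before to 50 bases after the start site (GRCm38.p6) was read for the *Cox8* pair, printed on the strand of the gene from 5′ to 3′, with the motifs that were found in capitals. The window of *Cox8b* (chr7:140900397-140900696, minus strand) holds the MyoD-type E-box CAGCTG at positions 232 and 267, counted from the 5′ end of the window, and the TATA box letters TATAAA at position 255. The window of *Cox7a1*, another muscle isoform, held none of the motifs searched. The window of *Cox8a* (chr19:7217567-7217866, minus strand) holds the ETS letters CCGGAAG on the opposite strand at positions 246 and 283.
Cox8b: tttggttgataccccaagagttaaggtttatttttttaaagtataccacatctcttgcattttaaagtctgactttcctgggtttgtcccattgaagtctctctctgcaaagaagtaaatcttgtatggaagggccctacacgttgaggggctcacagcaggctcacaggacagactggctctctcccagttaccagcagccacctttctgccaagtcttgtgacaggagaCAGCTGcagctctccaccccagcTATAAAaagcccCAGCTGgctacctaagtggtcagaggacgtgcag
Cox8a: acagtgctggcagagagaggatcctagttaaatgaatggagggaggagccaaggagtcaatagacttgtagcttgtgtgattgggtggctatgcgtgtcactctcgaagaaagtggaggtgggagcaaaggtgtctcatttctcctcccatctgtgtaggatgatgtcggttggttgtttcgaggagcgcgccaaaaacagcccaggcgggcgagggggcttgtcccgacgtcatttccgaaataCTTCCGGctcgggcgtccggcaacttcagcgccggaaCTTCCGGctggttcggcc
Windows of *Cox6a1* (chr5:115348909-115349208, minus strand), the general isoform that rose, and of *Sdhd* (chr9:50603800-50604099, minus strand), the complex II member that changed least, are shown for the letters GCGCANGCG of the factor NRF1. They occur at positions 89, 90 (opposite strand) and 134 in *Cox6a1*, where the first pair of matches overlaps, and at position 172 in *Sdhd*. Both windows also hold the ETS letters on the opposite strand, at positions 235 and 205, and *Sdhd* the oestrogen-related receptor half-site AAGGTCA on the opposite strand at position 287.
Cox6a1: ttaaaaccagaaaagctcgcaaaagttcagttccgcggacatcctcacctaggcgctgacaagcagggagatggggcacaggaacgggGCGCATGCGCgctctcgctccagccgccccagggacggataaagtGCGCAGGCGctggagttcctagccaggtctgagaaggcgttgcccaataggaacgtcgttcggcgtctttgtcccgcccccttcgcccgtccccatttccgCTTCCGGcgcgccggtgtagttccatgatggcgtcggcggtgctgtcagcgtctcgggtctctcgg
Sdhd: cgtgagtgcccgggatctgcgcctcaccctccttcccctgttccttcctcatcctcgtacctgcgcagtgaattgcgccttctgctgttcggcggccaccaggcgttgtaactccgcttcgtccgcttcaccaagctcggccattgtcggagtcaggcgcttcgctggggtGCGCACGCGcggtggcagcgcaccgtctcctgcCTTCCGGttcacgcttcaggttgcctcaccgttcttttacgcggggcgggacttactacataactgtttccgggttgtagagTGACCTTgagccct

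Of the 84 members, 68 were matched to 73 such windows, among 32851 windows of all genes, and 7 motifs were searched on both strands. The NRF1 letters were in 28.8% of member windows and 6.25% of all windows, and the ETS letters of the GABPA family in 23.3% and 8.86%. The YY1 letters AANATGGCG were in 13.7% and 2.38%, and the oestrogen-related receptor half-site in 10.96% and 4.72%. Motifs of muscle genes were not more frequent among members, with CAGCTG in 8.22% against 16.3% and the MEF2 core TAAAAATA in 0 of 73 windows against 2.72%. Besides *Cox8b*, CAGCTG was in windows of *Atp5b*, *Ndufa8*, *Ndufb10*, *Ndufs5* and *Ndufv2*, none of them a muscle isoform. TATAAA was in 10.96% and 13.6%. Member windows had a median GC content of 57.3%, against 52.7% over all windows, and short GC-rich letters occur more often in GC-rich sequence. A match describes the letters in these windows and is not evidence of binding.

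4 further members of complex IV were lowly expressed or departed from the rest. *Ndufa4l2*, a relative of *Ndufa4* that is induced by hypoxia, was at 19.0, 20.9, 32.2 and 27.4 CPM in the No operation group, at 63.1, 83.7, 27.5 and 22.6 CPM in SHAM and at 25.1, 18.3, 20.1 and 21.4 CPM in Laminectomy, where its log2 difference of -0.23 (SE 0.363) was not called. SHAM mice 1 and 2 were high and SHAM mice 3 and 4 lay within the No operation range. The SHAM change of 0.99 (SE 0.364) was called with an adjusted p of 0.0337 in edgeR, but without SHAM mouse 2 it was 0.60 with an adjusted p of 0.13, without SHAM mouse 1 it was 0.84 with an adjusted p of 0.0843, without both mice 1 it was 0.88 with an adjusted p of 0.0846, and without No operation mouse 1, 2 or 4 it was not called either (adjusted p 0.0822, 0.0766 and 0.0538), nor with SHAM and No operation mice alone in the fit (adjusted p 0.0683). With the replicate block it was 0.87 (adjusted p 0.0986 in edgeR) and not called. An exon of *Shmt2* overlaps *Ndufa4l2* on the opposite strand. *Cox7a2l*, a factor that joins complexes III and IV into supercomplexes, was at 105 to 131 CPM, 108 to 141 CPM and 111 to 139 CPM in the 3 groups, with log2 differences of 0.06 in both comparisons (SE 0.117, adjusted p 0.651 and 0.693). *Cox4i2*, the isoform of lung and low oxygen, was at 1.17 to 3.22 CPM over all mice, and *Cox6b2*, the testis isoform, at 0.421 to 1.24 CPM, and neither was called.

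The members listed as core subunits were the catalytic, redox-carrying and conserved central subunits of complexes I, II, III and V and, since the catalytic subunits of complex IV are encoded by mitochondrial DNA, its large nuclear subunits. All 20 were called lower in both comparisons, and 19 in Laminectomy with library totals alone, where *Sdhd* was lost. They had medians of -1.74 in SHAM and -1.43 in Laminectomy, against -1.31 and -1.13 for the 63 other members tested, a difference that was not tested. The lowest and highest of the core were *Ndufs7* and *Sdhd*, whose values are given above. With the 3 isoform pairs left out, the summed level of the remaining 78 members was 29.0%, 35.7%, 37.9% and 42.5% of the No operation mean in SHAM and 38.7%, 43.9%, 42.5% and 43.2% in Laminectomy, close to the sum that includes them.

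Laminectomy against SHAM asked whether removing the laminae added to the change. edgeR called 0 of 83 members, as it called 0% of all 14765 genes in either direction. The values of the members lay mostly on 1 side: 75 of 83 were higher in Laminectomy, with a median of 0.20, against 0.00 and 50.6% of genes higher over the whole table. At an unadjusted p below 0.05 there were 4 members higher, where 6.95% of all genes were, and 1 lower, where 9.03% were. The size of this shift depended on the mice and settings. Over all fits that left out 1 mouse the median ran from 0.11, without SHAM mouse 1, to 0.26, without SHAM mouse 4, with 67 to 81 members higher. The 4 members at an unadjusted p below 0.05 on the higher side became 0 without SHAM mouse 1 or Laminectomy mouse 2 or 3, 1 without Laminectomy mouse 4, 2 without SHAM mouse 2 or No operation mouse 1 or 3, 7 without No operation mouse 4 (7.69% of all genes), 10 without Laminectomy mouse 1 (8.37% of all genes) and 22 without SHAM mouse 4 (7.655% of all genes). It was 13 with the replicate block (7.47% of all genes), 13 with upper-quartile scaling (10.04%) and 14 with library totals alone (10.25%), and the latter 2 scalings also placed 59.0% and 60.8% of all genes higher. Without both mice 1 the median was 0.13, with 66 of 83 higher and 4 at an unadjusted p below 0.05. Marker lists moved in the same comparison: 26 of 26 myofibre markers were higher in Laminectomy (median 0.61, 0 at an unadjusted p below 0.05), 10 of 10 regenerating myofibre markers higher (median 0.66, 0 at an unadjusted p below 0.05), 12 of 12 macrophage markers lower (median -0.80, 8 at an unadjusted p below 0.05), 10 of 10 white adipocyte markers lower (median -1.49, 3 at an unadjusted p below 0.05) and 8 of 8 erythroid markers higher (median 2.18, 5 at an unadjusted p below 0.05), none of them called. Neutrophil markers were higher in 8 of 10 (median 0.97, 0 at an unadjusted p below 0.05), with a median of 1.43 without SHAM mouse 1. Fibroblast, endothelial and brown adipocyte markers lay on both sides. The values of the lists also depended on the mice, although lists that lay wholly on 1 side kept it. Without SHAM mouse 1 the medians were 0.31 for myofibre markers, 0.26 for regenerating myofibre markers (2 at an unadjusted p below 0.05) and -0.44 for macrophage markers (4). Without Laminectomy mouse 1 there were 6 myofibre markers and 1 white adipocyte marker at an unadjusted p below 0.05. Without both mice 1 the medians were 0.53 for myofibre markers (10 at an unadjusted p below 0.05), 0.30 for regenerating myofibre markers (2), -0.66 for macrophage markers (4), -1.25 for white adipocyte markers (1) and 1.55 for erythroid markers (0). Their part in the shift of the members was not tested. DESeq2 placed 7 members at an unadjusted p below 0.05 on the higher side (8.24% of all genes) and called 1 member, *Ndufa4l2*, lower (log2 -1.21, adjusted p 0.0322), where it called 2.28% of all genes lower and 1.8% higher.

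The members with the smallest unadjusted p in that comparison were *Ndufa4l2*, at -1.22 (SE 0.365, adjusted p 0.157 in edgeR), *Uqcrc2*, at 0.43 (SE 0.170, adjusted p 0.25), and *Atp5g1*, at 0.44 (SE 0.182, adjusted p 0.271). *Uqcrc2*, the second core protein of complex III, was at 85.4, 92.5, 129 and 144 CPM in SHAM and 131, 165, 168 and 142 CPM in Laminectomy, and these ranges overlap. *Cox6a2* was at 0.65 (SE 0.470), *Cox7a1* at 0.76 (SE 0.360) and *Cox8b* at 0.40 (SE 0.494) in Laminectomy against SHAM, and none of these was called. *Cox6a1* was at 0.01 (SE 0.0975) and *Cox8a* at -0.01 (SE 0.0795), and the sign of both turned with the mice or the scaling used.

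In bulk tissue, fewer cells of a type and less RNA per cell cannot be told apart, so the levels of marker lists are given beside the members. The 26 mature myofibre markers, sarcomere proteins, *Ckm* and *Mb* among them, fell in 24 genes in both comparisons, with medians of -3.76 and -3.11. *Tnnt1* and *Tnnc1* were not called. Their sum was 135600 to 189300 CPM in the No operation group, 3279 to 14950 CPM in SHAM and 5364 to 20900 CPM in Laminectomy. The muscle isoforms of complex IV summed to 1.99%, 6.80%, 5.76% and 7.95% of the No operation mean in SHAM and 2.58%, 10.2%, 10.2% and 11.5% in Laminectomy, close to the myofibre markers mouse by mouse, at 2.08%, 6.50%, 8.13% and 9.47%, and 3.40%, 13.2%, 11.1% and 10.7%. Per 1000 CPM of myofibre markers there were 3.09 ± 0.750, 2.73 ± 0.450 and 2.71 ± 0.462 CPM of muscle isoforms in the 3 groups (SD, n = 4). All members together lay higher, at 29.0%, 35.8%, 37.7% and 42.4% in SHAM and 38.6%, 43.6%, 42.3% and 43.1% in Laminectomy, while the 3 general isoforms summed to 100.7% to 119.9% and 106.3% to 122.4%. For each CPM of myofibre markers there were 0.105 to 0.120 CPM of members in No operation mice, 0.490 to 1.53 in SHAM and 0.361 to 1.25 in Laminectomy.

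Markers of other cell types were counted in the same way, to be read against the shares over all genes, 25.1% lower and 25.7% higher in SHAM and 24.4% lower and 24.2% higher in Laminectomy. Of 10 regenerating myofibre markers 7 rose in SHAM and 8 in Laminectomy. Their sums were 40.1% to 173% of the No operation mean in No operation mice, 525% to 854% in SHAM mice 2 to 4 and 523% to 858% in Laminectomy, but 2.62% in SHAM mouse 1, below every No operation mouse. Without that mouse 8 rose in SHAM. Of 12 macrophage markers 12 and 11 rose, with sums of 372% to 680% of the No operation mean in SHAM and 266% to 425% in Laminectomy, and SHAM mouse 1 was the highest. Of 12 fibroblast markers 9 rose and 1 fell in both comparisons, with sums of 281% to 372% and 259% to 328%. Counts near or under those shares were found for endothelial markers (3 of 10 lower in both comparisons), neutrophil markers (1 of 10 higher in both) and erythroid markers (2 of 8 lower in SHAM, 0 without SHAM mouse 1 and 5 without Laminectomy mouse 1, and 0 of 8 in Laminectomy). White adipocyte markers fell in 6 of 10 in SHAM, 4 without SHAM mouse 1, and in 10 of 10 in Laminectomy. The brown adipocyte list, which holds the members *Cox7a1* and *Cox8b*, fell in 5 and 6 of 8 tested, but its defining marker *Ucp1* was at 4.00 CPM in No operation mouse 1 and at most 0.126 CPM in all other mice. The list summed to 19.8% to 36.2% of the No operation mean in SHAM and 36.4% to 44.95% in Laminectomy. Without *Cox7a1* and *Cox8b* the sums were 34.3% to 59.7% and 64.6% to 74.0%. The part of these cell types in the members' levels was not tested.

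**Figure D4:**
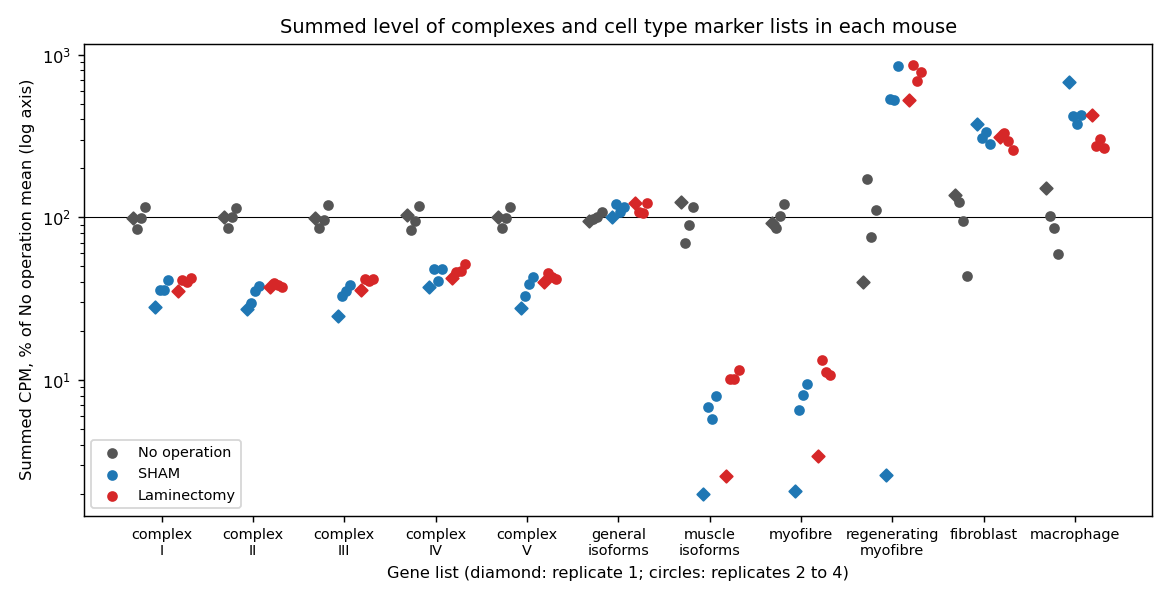
Summed CPM of the 5 complexes, the isoforms and 4 marker lists as percent of the No operation mean (y axis, log) for each list (x axis); each point is 1 mouse, replicate 1 drawn as a diamond. The muscle isoforms lie at the height of the myofibre markers, at 1.99% to 11.5%, the complexes between them and the No operation level, and SHAM mouse 1 is lowest in regenerating myofibre markers.

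Genes that work with the respiratory chain were counted in 7 lists, again chosen with earlier results of these data known. Electron carriers and subunits outside the name pattern fell in 12 of 12 genes in SHAM and 11 of 12 in Laminectomy, with medians of -1.31 in both. *Cycs*, cytochrome c itself, fell from 372 to 535 CPM in the No operation group to 86.6 to 126 CPM in SHAM and 138 to 156 CPM in Laminectomy, by 1.99 (SE 0.146) and 1.54 (SE 0.144) on the log2 scale. *Cyc1*, cytochrome c1 of complex III, was at -1.71 and -1.38, and *Ndufab1*, the acyl carrier subunit of complex I, at -1.64 and -1.30, both called. In SHAM both lay below the medians of their complexes (-1.46 and -1.42), and in Laminectomy they were nearer to them (-1.29 and -1.28). *Gpd2*, the mitochondrial glycerol phosphate dehydrogenase, was lowest at -2.86 and -2.80, and *Dhodh*, which makes pyrimidines, highest among those called at -0.55 and -0.53.

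The citric acid cycle fell in 13 of 13 genes in both comparisons, with medians of -1.86 and -1.63, from *Idh3a*, the catalytic isocitrate dehydrogenase subunit, at -2.51 and -2.02 to *Dlst* of the oxoglutarate dehydrogenase complex at -0.75 and -0.53. Mitochondrial fatty acid oxidation fell in 12 of 13 genes and rose in 1 in both comparisons. That list also holds a tissue pair: *Cpt1b*, the muscle carnitine palmitoyltransferase, was at 174 to 273 CPM in the No operation group and 8.77 to 38.7 CPM in surgical mice, at -3.59 (SE 0.432) and -3.07 (SE 0.421), while *Cpt1a*, the liver form, rose by 1.42 (SE 0.148) and 0.97 (SE 0.146). Among carriers and porins 6 of 7 fell and 1 rose in SHAM, and 5 fell and 1 rose in Laminectomy. *Ckmt2*, the sarcomeric mitochondrial creatine kinase, was at -5.20 (SE 0.675) and -4.48 (SE 0.652), *Slc25a4*, the ADP/ATP carrier of muscle, at -2.79 and -2.48, and *Slc25a5*, the carrier of dividing cells, rose by 0.96 and 1.15.

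Regulators of mitochondrial biogenesis fell in 10 of 14 genes and rose in 1 in both comparisons. *Perm1*, a muscle regulator of oxidative genes, had the lowest values, -4.43 (SE 0.179) and -3.96 (SE 0.174), and the coactivator *Ppargc1a* was at -4.11 (SE 0.449) and -3.38 (SE 0.430). *Pprc1*, a related coactivator of growing cells, rose by 0.53 and 0.55. Some of the genes whose factors recognise letters counted above are given here. The oestrogen-related receptors *Esrra*, at -1.02 and -1.13 (SE 0.119), *Esrrb*, at -4.00 (SE 0.545) and -2.82 (SE 0.505), and *Esrrg*, at -4.14 (SE 0.587) and -3.11 (SE 0.551), fell in both comparisons. *Myod1*, of the E-box, was at -0.40 and 0.45, inside the fold threshold, and was not called. Genes of the YY1 and MEF2 factors are not given here. *Nrf1* was at 0.19 and 0.16 (SE 0.0706, adjusted p 0.0366 and 0.0655 in edgeR), and *Gabpa* at -0.26 and -0.16 (SE 0.0738 and 0.0737, adjusted p 0.00906 and 0.0743). Both stayed inside the fold threshold and were not called, and no surgical mouse overlapped the No operation mice in either gene. Of all genes tested, 23.6% had all 8 surgical mice below all No operation mice and 21.1% had them above. Assembly factors, which build the complexes but stay out of them, fell in 32 of 45 genes in both comparisons with a median of -0.73 in each, *Ecsit* lowest in Laminectomy at -1.79 and *Coa6* highest of those called at -0.53. Of the genes of protein import into mitochondria, 8 of 21 were called lower in SHAM and 6 of 21 in Laminectomy, where 25.1% and 24.4% of all genes were, so the Laminectomy count lay near the background. The list medians were -0.28 and -0.19, *Timm8b* at -1.31 and *Timm9* at -0.63 in Laminectomy being the lowest and highest of those called. Differences between lists were not tested.

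**Figure D5:**
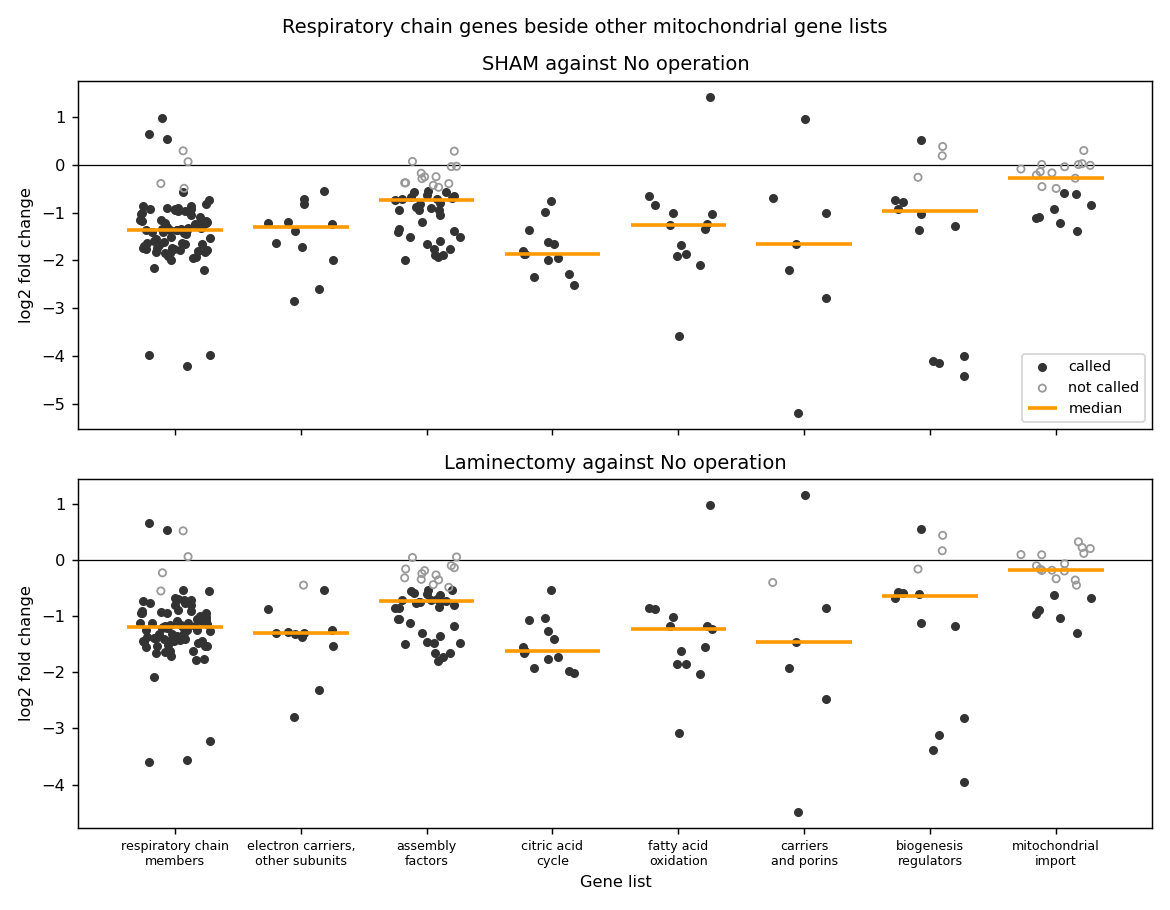
log2 fold change against No operation (y axis) of each gene in the respiratory chain family and 7 other mitochondrial lists (x axis), SHAM above and Laminectomy below; filled points were called, open points were not, and orange bars are medians. The medians run from -1.86 for the citric acid cycle to -0.28 for import in SHAM and from -1.63 to -0.19 in Laminectomy, and *Cpt1a*, *Slc25a5* and *Pprc1* are the called genes above 0 outside the family.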

How the data were processed

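Stranded mRNA libraries were sequenced by the authors, aligned with STAR 2.6.1b to GRCm38/mm10 and counted with featureCounts 2.0.1 in default settings, per the submitters' notes and the study's methods. The authors deposited estimated counts per gene, unscaled: 10.22% of values are not whole, which default settings would not give, and were rounded; use of strand is therefore uncertain. Members and lists were chosen with earlier results of these data known. The study used 3 mice per group, not named in the sources used here, so all 4 were used. Mice are separate animals and each was 1 replicate.

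Genes passing filterByExpr (14765) were fitted with edgeR 4.0.16 (R 4.3.3), TMM scaling and the quasi-likelihood test over 3 groups, with Benjamini-Hochberg adjustment. The biological coefficient of variation was 28.3%. The code was tested on simulated data. CPM are TMM scaled, and lengths are those of the principal GENCODE M21 transcript. Sums and shares got no test. Alternatives were DESeq2 1.42.0, other scalings, filters, a fold threshold of 1, 2 groups only, each mouse left out, and a replicate block. Genes named were the isoform pairs, the extremes of each complex, chosen catalytic subunits, members called against their complex, the 3 smallest p in Laminectomy against SHAM, and other isoforms; from each list, the extremes in Laminectomy. *Ndufs8*, *Ndufb7*, *Ndufc2*, *Atp5h*, *Atp5mpl*, *Cycs*, *Cyc1*, *Ndufab1*, *Slc25a4*, *Ppargc1a*, *Esrra*, *Esrrb*, *Esrrg*, *Nrf1*, *Gabpa* and *Myod1* were named after their values were seen.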

Additional observations from a re-analysis of the deposited data

Results flagged for a closer look

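Over 120 groups of 4 mice, 5 held a mouse whose gap to its nearest neighbour was a large part of the group's range (Dixon's 95% limit), a flag that chance raises in about 1 in 20 groups. Laminectomy mouse 1 was low in 4 of them: in *Cox6a2*, at 9.32 CPM against 36.1 to 41.1 CPM in the others of its group, in *Cox7a1*, at 1.59 CPM against 4.94 to 5.53 CPM, in the *Cox6a2* share of its pair, at 7.27% against 27.1% to 29.6%, and in the *Cox7a1* share of its pair, at 4.84% against 13.0% to 14.0%. The same mouse had the lowest myofibre marker sum of its group. The fifth was *Ndufa4* in No operation mouse 4, at 259 CPM against 184 to 196 CPM.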

How the results depend on the processing

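Against No operation 79 members were called in each comparison, and the totals were 77 to 80 (SHAM) and 77 to 79 (Laminectomy) when each mouse was left out in turn, and 63 and 58 at a log2 fold threshold of 1. With library totals alone the counts were 77 and 68 (*Ndufv3*, *Sdhd*, *Uqcrh*, *Cox6b1* and *Atp5g3*, among others, were then under 0.5 in Laminectomy), and the log2 fold change of all genes shifted by a median of 0.25 in SHAM and 0.33 in Laminectomy (0.14 in Laminectomy with upper-quartile scaling), so the members' medians lose about that much. The summed level then rose to 42.3% and 49.96% of No operation for complex I, 39.1% and 47.7% for complex II, 39.5% and 49.97% for complex III, 52.3% and 58.8% for complex IV and 42.8% and 53.5% for complex V, in SHAM and Laminectomy; leaving out 1 mouse gave 36.4% to 39.9% for complex II and 40.8% to 44.9% for complex V in Laminectomy. For Laminectomy against SHAM, DESeq2 called 1 member and every edgeR setting run called 0.

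Whether replicate numbers pair the mice was not settled. Same-numbered deviations correlated at -0.228 to 0.352, different-numbered ones at -0.454 to 0.346, and not every mouse correlated best with its own number. Between mice 1 the correlations were 0.195, 0.192 and 0.131. With the replicate block 78, 79 and 0 members were called, the one lost being *Ndufa4l2* (adjusted p 0.0986).

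Signs turned for 4 named members, none of them called in the comparison concerned: *Cox7a2l*, over the settings that leave out mice, from -0.0013 (without SHAM mouse 2) to 0.1244 in SHAM and from -0.0065 (without Laminectomy mouse 4) to 0.1255 in Laminectomy, and *Ndufa4l2* from -0.2304 to 0.0909 in Laminectomy with library totals. In Laminectomy against SHAM, *Cox6a1* was at -0.032, -0.0762 and -0.1347 without SHAM mouse 1, Laminectomy mouse 1 and both (highest 0.0671), and *Cox8a* at 0.0419 and 0.0539 with upper-quartile scaling and library totals and at 0.0245 to 0.0298 without 1 of 3 mice (lowest -0.0712). The cause was not tested. *Ndufb4b*, *Cox4i2* and *Cox6b2* were below 4 CPM in every mouse, *Cox7a1* in every SHAM mouse and Laminectomy mouse 1, and *Cox8b* in mouse 1 of both surgical groups; the effect of depth was not tested.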
